A study of Mus musculus with 5 samples.

Results

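The glycolytic enzyme genes Gapdh, Ldha, Pgk1, Pfkp, Aldoa, Tpi1, Eno1, Pgam1, Hk1 and Hk2 were followed in lungs of 5 C3H mice after ovalbumin sensitisation and challenge (ova mice). C3H is an inbred mouse strain, and ovalbumin is an egg-white protein used as an allergen. Each ova mouse was hybridised on its own 2-colour array against a pool of RNA from control C3H lungs; both sides were amplified before labelling. The number of pooled control mice, their handling, the mice's age and the dyes are not stated in the sources at hand. Members were the probes whose platform annotation names only one of these genes, with values on 4 or 5 arrays. Of the 10 genes, 9 were measured, by 40 of their 41 annotated probes: 16 for Gapdh, 17 for Ldha and 1 for each of the others. No probe is annotated to Eno1 in the annotation used here, so the enolase step is not analysed here, and 1 Gapdh probe had no value. The whole table gave 9715 genes and 11714 probes under the same filter.

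Glycolysis splits glucose into pyruvate and yields ATP without oxygen. Hexokinase traps glucose in the cell, phosphofructokinase commits it to the pathway, aldolase and triosephosphate isomerase make the 3-carbon sugars, and glyceraldehyde-3-phosphate dehydrogenase, phosphoglycerate kinase and phosphoglycerate mutase carry these towards pyruvate, which lactate dehydrogenase turns into lactate. Several of these genes are known targets of the hypoxia-inducible factor HIF-1 and of Myc, and activated immune cells and dividing cells are known for high glycolytic flux.

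Values are the deposited log ratios, with base 2 taken, after centring each array on its median. The array titles name the ova mouse before the control pool, but neither the labels nor the files state the numerator. A gene is therefore placed on the negative or the positive side of the ratio. No statement is made here of whether its RNA was more or less abundant in ova lungs. Words such as low, below and above describe the ratio and not the amount of RNA. The 5 arrays ran the same way, with Pearson's r across probes between 0.643 and 0.83 for the pairs of arrays. The 6 goblet cell markers measured, among them Clca1 (-4.33) and Muc5ac (-3.00), which are known to be induced in allergic airways, all passed with negative means. Each gene was tested against 0 with limma's moderated test, adjusted over all genes by the Benjamini-Hochberg method, at a threshold of 0.05. The control pool counts as 1 sample, so the test covers the spread among ova mice and not that among control mice. A difference of the pool or of the dyes that repeats on all 5 arrays cannot be told apart from a difference of condition. The ratio compares whole lungs, in which the number of cells of a type and the RNA per cell cannot be told apart.

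Of the 9 measured members, 5 passed the threshold with a negative mean, 0 with a positive mean, and 4 fell short of it. Over all 9715 genes, 15.2% passed with a negative mean, 12.3% with a positive mean and 27.5% with either. The median of the members' mean ratios was -0.38, beside 0.00 over all genes. The 5 were Pgk1, Ldha, Pfkp, Gapdh and Pgam1, and each was below 0 in all 5 mice, as were 20.9% of all genes. Above 0 on every array were 0 members and 19.2% of all genes. Their mean ratios lay between -0.62 and -0.38, which is between 1.30-fold and 1.53-fold in size if the base is 2. Leaving out mouse 3, mouse 4 or mouse 5 left 3 of the 5 calls, those of Pgk1, Ldha and Pfkp, and leaving out mouse 2 left 4. Without mouse 1, whose ratios had an SD of 0.20 across probes against 0.32 to 0.38 on the other arrays, 5 members passed.

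**Figure D1:**
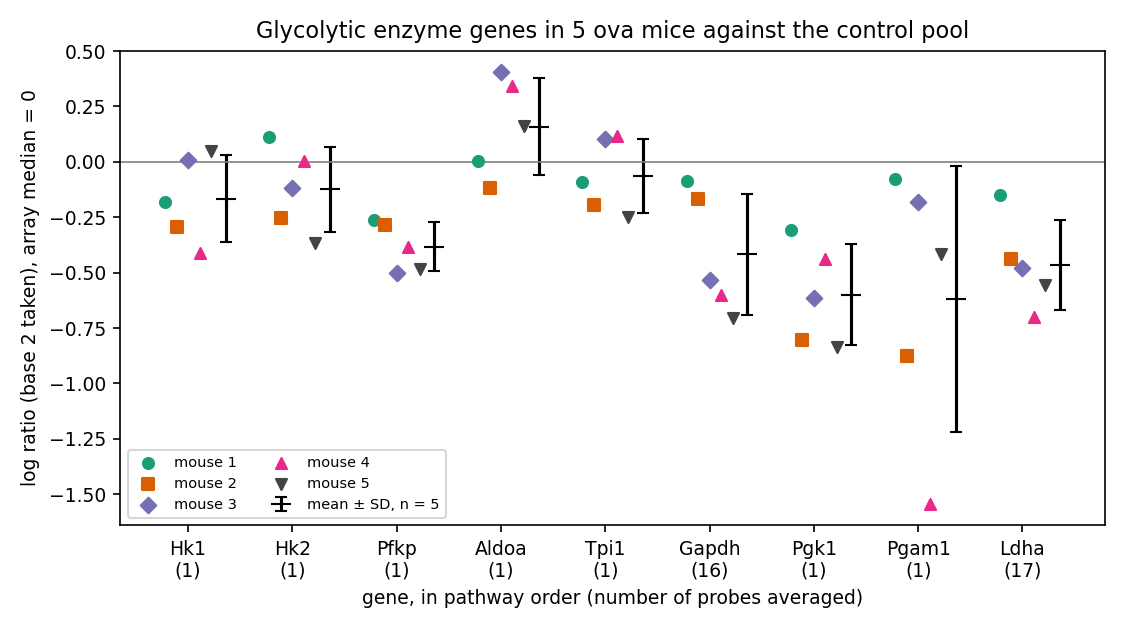
Centred log ratio (base 2 taken, vertical axis) of the 9 measured glycolytic genes in pathway order, with a point for each of the 5 ova mice against the control pool and a bar for the mean ± SD. Pfkp, Gapdh, Pgk1, Pgam1 and Ldha lie below 0 in all 5 mice, whereas Hk1, Hk2, Aldoa and Tpi1 have mice on both sides of 0; Pgam1 spreads from -0.08 in mouse 1 to -1.54 in mouse 4.

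The entry steps of the pathway were mixed. Hk1, the hexokinase of most tissues, had ratios of -0.18, -0.30, 0.01, -0.41 and 0.05 in mice 1 to 5. Hk2, the inducible hexokinase of muscle, fat and activated cells, had 0.11, -0.25, -0.12, 0.00 and -0.37. For both genes 3 mice lay below 0 and 2 above, with means of -0.17 ± 0.20 for Hk1 and -0.12 ± 0.19 for Hk2 (SD, n = 5; limma adjusted p = 0.134 and 0.242). The 95% intervals of the means, -0.34 to 0.01 for Hk1 and -0.29 to 0.04 for Hk2, reach from shifts nearly as large as that of Pfkp to values just above 0. The Hk2 probe lies 12 IDs from the strong probe of C1qb (-1.99), and its value without that probe cannot be given, because it is the gene's only probe.

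Pfkp, the platelet-type subunit of phosphofructokinase, had the smallest spread of all members. Its ratios were -0.26, -0.28, -0.50, -0.38 and -0.49 in mice 1 to 5. All 5 mice lay on the negative side within a narrow band, giving a mean of -0.38 ± 0.11 (SD, n = 5; limma adjusted p = 0.00245). Among all genes, 6.88% had a lower mean.

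The 2 members in the middle of the pathway did not pass. Aldoa, aldolase A of muscle and most other tissues, had 0.00, -0.12, 0.40, 0.34 and 0.16 in mice 1 to 5, and was the only member with a mean above 0, at 0.16 ± 0.22 (SD, n = 5; limma adjusted p = 0.183; 95% interval -0.03 to 0.35). Tpi1, triosephosphate isomerase, had -0.09, -0.19, 0.10, 0.12 and -0.25, a mean of -0.06 ± 0.17 (SD, n = 5; limma adjusted p = 0.519; 95% interval -0.22 to 0.09). In every mouse Aldoa stood above Tpi1, by 0.22 ± 0.14 on average (SD of the differences, n = 5). Aldoa also stood above Hk1, Pfkp, Gapdh, Pgk1, Pgam1 and Ldha in all 5 mice, and above Hk2 in 4 of 5; this order was noted after the values were seen and was not tested.

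Gapdh, glyceraldehyde-3-phosphate dehydrogenase, is widely used as a reference gene for RNA measurements. Averaged over its probes it had -0.09, -0.17, -0.54, -0.60 and -0.70 in mice 1 to 5. Mice 1 and 2 lay close to 0, and mice 3, 4 and 5 lay well below it. The mean was -0.42 ± 0.27 (SD, n = 5; limma adjusted p = 0.0159). Without mouse 3, mouse 4 or mouse 5 the mean was -0.39, -0.37 or -0.35 and the call was lost, with limma adjusted p of 0.0636, 0.0529 and 0.0579 (0.0056 to 0.0636 over its 14 alternatives).

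Set against Gapdh on the same array, as a reference gene would be used, the members fell on both sides of it. The median of all other genes stood 0.41 above Gapdh. Ldha differed from Gapdh by -0.05 ± 0.16, Pfkp by 0.04 ± 0.18 and Pgk1 by -0.18 ± 0.29 (SD, n = 5). Tpi1 stood 0.36 ± 0.35, Hk2 0.29 ± 0.26 and Aldoa 0.58 ± 0.46 above it, so that on this scale 5 of the other 8 members were on the positive side of Gapdh and 3 on the negative side.

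Pgk1, phosphoglycerate kinase 1, which makes ATP, had -0.31, -0.81, -0.61, -0.44 and -0.83 in mice 1 to 5. All mice lay clearly below 0, with mouse 1 nearest to it. The mean was -0.60 ± 0.23 (SD, n = 5; limma adjusted p = 0.00238), and 2.95% of all genes had a lower mean. Pgk1 lay below Pfkp, Aldoa, Tpi1, Hk1 and Hk2 in all 5 mice. Its difference from Hk2 was -0.48 ± 0.05 (SD of the differences, n = 5), the smallest SD among all pairs of members. In the other pairs that SD ran from 0.14 to 0.67. The pair of Pgk1 and Hk2 was picked after the values were seen and was not tested.

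Pgam1, phosphoglycerate mutase 1, had the lowest mean and the widest spread. Its ratios were -0.08, -0.87, -0.18, -1.54 and -0.42 in mice 1 to 5. Mice 4 and 2 carried most of the shift, and mice 1 and 3 lay near 0. The mean was -0.62 ± 0.60 (SD, n = 5; limma adjusted p = 0.0499), at the edge of the threshold. The call was lost under 7 of its 14 alternatives, with adjusted p-values from 0.03 to 0.136. Without mouse 4 the mean was -0.39 and limma adjusted p = 0.0745. Of the probes 6 IDs away on either side, that of Thyn1 had -0.08, -0.90, -0.24, -1.08 and -0.33, low in the same mice 2 and 4, and that of Prkacb had 0.26, 0.41, 0.25, 0.36 and 0.45, above 0 in all 5 mice. Both neighbours were named after their values were seen, and whether the neighbouring position plays a part in the ratio of Pgam1 was not tested. Counted without Pgam1, 4 of 8 members passed, all on the negative side.

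Ldha, lactate dehydrogenase A, the subunit that favours making lactate from pyruvate, had -0.15, -0.44, -0.48, -0.70 and -0.56 in mice 1 to 5. All 5 lay below 0 and mouse 1 was nearest to it. The mean was -0.47 ± 0.20 (SD, n = 5; limma adjusted p = 0.00436), and the call held under all 14 alternatives, with means from -0.54 to -0.41.

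Gapdh and Ldha are among 10 genes that the array carries on 17 probes each, which lets the spread between probes be set beside that between mice. For Gapdh, 12 of 16 probes passed on their own and all 16 probe means were below 0, from -0.56 to -0.25. For Ldha, 16 of 17 probes passed and all 17 means were below 0, from -0.59 to -0.34. Over all probes, 14.7% passed on the negative side in limma's test. Among the other genes with 17 annotated probes, the probes past the threshold ran from 0 of 15 for Tcf3 to 16 of 17 for Nup62. All 17 probe means of Nup62 were below 0. The probes of a gene share the same RNA and are not replicates of the condition.

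Within a probe of Gapdh, the SD between mice was 0.30 (median over probes), and within a mouse the SD between probes was 0.13 (median over mice). The corresponding values for Ldha were 0.24 and 0.10, so for both genes mice differed more than probes did. In the other 8 genes with 17 annotated probes, the median SD between probes within a mouse lay from 0.10 for Eif4a2 to 0.48 for Hspa1a.

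Mouse 1 had Gapdh probes from -0.28 to 0.04 and mouse 5 from -0.98 to -0.48, so the probes of these mice did not overlap. Over all probes, the SD was 0.20 on the array of mouse 1 and 0.38 on that of mouse 5. Such array-wide spread enters the SD between mice and was not separated from it. The probes of Ldha spread most in mouse 4. There 7 probes had ratios from -1.63 to -0.69 and the other 10 from -0.45 to -0.26, and the SD between probes was 0.44, against at most 0.16 in the other mice. The array of mouse 4 also held a wide spread for Cyc1, another gene with 17 annotated probes, from -1.45 to -0.01 with an SD of 0.52 over 15 probes. The 7 low probes lie between IDs 9884 and 9891, with 1 of the other probes among them. In mice 1, 2, 3 and 5 the same 7 probes had medians of -0.13, -0.41, -0.51 and -0.44, beside -0.17, -0.43, -0.48 and -0.63 for the other 10. With the median over probes in place of the mean, Ldha had a mean of -0.42 (limma adjusted p = 0.00341), and without mouse 4 it had -0.41 (limma adjusted p = 0.0142).

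**Figure D2:**
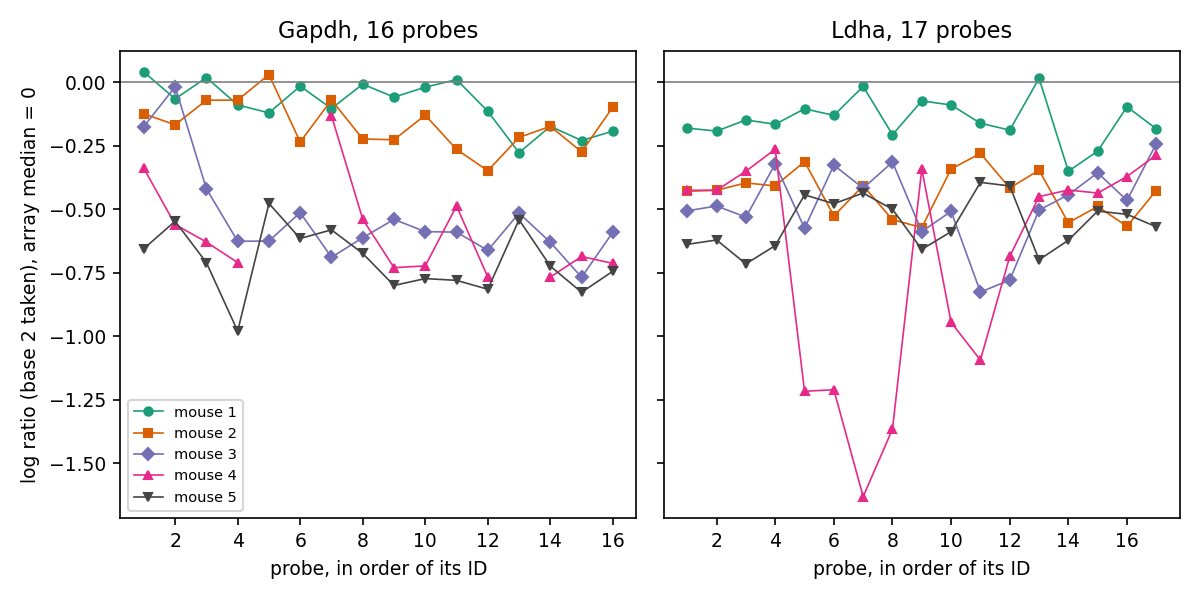
Centred log ratio (base 2 taken) of each probe of Gapdh (16 probes) and Ldha (17 probes) in order of probe ID, with a line for each of the 5 ova mice against the control pool. In most Gapdh probes mice 1 and 2 lie above mice 3, 4 and 5, and in Ldha 7 probes of mouse 4 lie between -1.63 and -0.69 while the other 10 lie between -0.45 and -0.26.

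Isoenzyme genes of the same steps were set beside the members, with the pairs chosen after their values were seen. Ldhb, the subunit that favours turning lactate back into pyruvate, had -0.13, -0.12, 0.18, -0.33 and 0.24 in mice 1 to 5 and did not pass (mean -0.03 ± 0.24; SD, n = 5; limma adjusted p = 0.811). Ldha lay below Ldhb in 5 of 5 mice, by -0.43 ± 0.30 on average. Pgk1 lay below Pgk2, the testis isoenzyme, in 5 of 5 mice, by -0.52 ± 0.23, and Pfkp below Pfkl, the liver-type subunit, in 5 of 5 mice, by -0.21 ± 0.12 (SD of the differences, n = 5 each). For each of these 3 pairs the exact two-sided sign-flip permutation test gave p = 0.0625, the smallest that 5 arrays allow, and p = 0.125 after Benjamini-Hochberg adjustment over the 6 pairs compared. Ldha and Ldhc, Aldoa and Aldoc, and Hk1 and Hk2 differed by -0.29 ± 0.19, 0.21 ± 0.27 and -0.04 ± 0.33, with adjusted exact permutation p of 0.188, 0.225 and 0.812. The pairs were picked with their values known and the adjustment covers only these 6, so the p-values are not independent evidence. Whether probes of related genes share signal was not tested. Spot brightness was not available, so it cannot be told whether the spots of isoenzyme genes such as Pgk2 and Ldhc were faint.

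**Figure D3:**
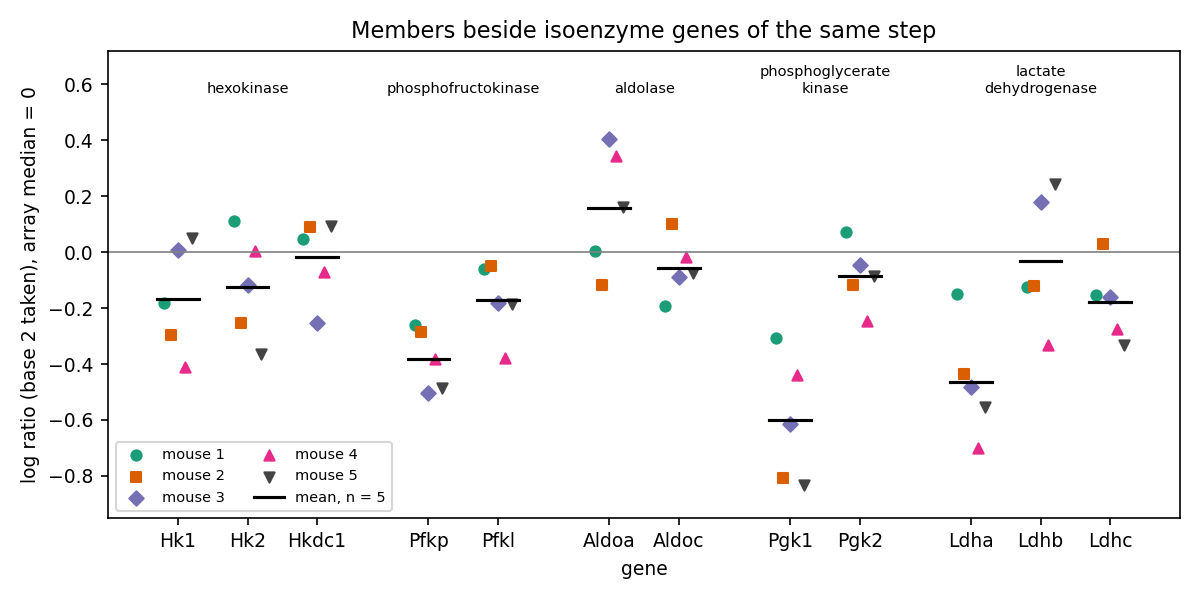
Centred log ratio (base 2 taken) of members and isoenzyme genes of the same step in each of the 5 ova mice against the control pool, with the mean as a bar. Ldha lies below Ldhb, Pgk1 below Pgk2 and Pfkp below Pfkl in all 5 mice, while the hexokinase genes overlap.

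Sequences upstream of the starts of the 5 members past the threshold are shown. Each holds ACGTG or GCGTG, core letters to which HIF-1 is known to bind. So do 3 of the 4 measured members that did not pass. The share of all genes with either motif was not counted, and shares for each motif alone are given below. The sequences are the 250 bases before the annotated start from RefSeq, build GRCm38.p6, in the direction of the gene. For Ldha, with 2 listed starts, the first is shown. Capitals mark ACGTG and GCGTG on either strand, which read CACGT and CACGC on the strand printed when the match is on the opposite strand.
Ldha chr7:46845554-46845803 (+ strand): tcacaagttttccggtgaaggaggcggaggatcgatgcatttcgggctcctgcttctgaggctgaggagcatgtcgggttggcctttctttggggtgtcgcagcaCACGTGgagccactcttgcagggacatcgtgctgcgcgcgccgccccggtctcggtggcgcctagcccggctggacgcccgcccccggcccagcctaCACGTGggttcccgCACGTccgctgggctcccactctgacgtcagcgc
Pgk1 chrX:106186850-106187099 (+ strand): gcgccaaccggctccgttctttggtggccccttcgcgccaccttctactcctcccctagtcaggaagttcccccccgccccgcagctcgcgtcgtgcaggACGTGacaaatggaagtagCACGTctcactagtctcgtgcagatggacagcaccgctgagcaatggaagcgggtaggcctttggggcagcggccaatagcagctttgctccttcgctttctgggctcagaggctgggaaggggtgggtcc
Pgam1 chr19:41911621-41911870 (+ strand): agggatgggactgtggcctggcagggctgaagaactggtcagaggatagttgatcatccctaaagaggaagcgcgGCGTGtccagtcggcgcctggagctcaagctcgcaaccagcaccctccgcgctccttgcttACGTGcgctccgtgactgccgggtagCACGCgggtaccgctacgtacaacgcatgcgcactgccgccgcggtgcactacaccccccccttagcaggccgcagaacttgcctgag
Pfkp chr13:6648772-6649021 (- strand): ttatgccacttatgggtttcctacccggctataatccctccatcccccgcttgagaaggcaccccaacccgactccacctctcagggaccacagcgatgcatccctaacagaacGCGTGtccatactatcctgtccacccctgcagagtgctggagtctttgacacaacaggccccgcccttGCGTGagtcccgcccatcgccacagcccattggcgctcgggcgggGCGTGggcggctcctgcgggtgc
Gapdh chr6:125165774-125166023 (- strand): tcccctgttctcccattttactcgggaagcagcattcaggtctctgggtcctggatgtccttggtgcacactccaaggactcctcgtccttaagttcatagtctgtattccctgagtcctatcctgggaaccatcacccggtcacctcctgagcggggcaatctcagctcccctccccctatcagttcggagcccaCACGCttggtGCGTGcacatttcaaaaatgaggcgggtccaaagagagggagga

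Positions are counted back from the start, with -1 the last base before it, and give the leftmost base of a match. The printed Ldha window holds CACGTG, which contains ACGTG on both strands, at -145 and -48, and ACGTG on the opposite strand at -34. The second listed Ldha window holds neither ACGTG nor CACGTG, and has GCGTG on the opposite strand at -59. Pgk1 has ACGTG at -150 and, on the opposite strand, at -131. Pgam1 has ACGTG at -114 and GCGTG at -175 and, on the opposite strand, at -88. Pfkp has GCGTG at -136, -68 and -23, and Gapdh has it at -44 and, on the opposite strand, at -54; neither of these windows holds ACGTG.

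Among the measured members that did not pass, the Hk2 window has ACGTG on the opposite strand at -226 and -52, and Aldoa has it on the opposite strand at -126 or -202 in 2 of its 3 listed windows. Hk1 has GCGTG at -12 and, on the opposite strand, at -196 and -15 in 1 of its listed windows, and that of Tpi1 has neither motif. At least 1 listed start had ACGTG in 5 of the 10 genes, Eno1 included, beside 18.5% of 27025 genes in the RefSeq table, and GCGTG in 6 of the 10, beside 30.9%. CACGTG was in 1 of the 10, beside 6.86%. The letters GGGCGG, counted in the same way, were in 7 of the 10, beside 35.4%. A gene with several listed starts has more windows in which to match. Counted by window, ACGTG was in 6 of the 16 member windows, beside 16.6% of 32851, and GCGTG in 8 of 16, beside 28.2%. These are matches of letters in a window of 250 bases and show no binding.

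Related genes in 9 lists were then counted: 88 of 150 listed genes were measured, 15 of them past the threshold with a negative mean and 11 with a positive mean, while 62 fell short; the median of their mean ratios was 0.00. These counts stand beside 15.2% and 12.3% over all genes, and over the 9 lists they were near those shares. The same shares stand beside the counts of each list below. Leaving out mouse 2, 3 or 5 reduced the 26 calls to 17, 14 and 15.

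Of 11 other glycolytic enzymes and isoenzymes measured, 1 passed with a negative mean and 0 passed with a positive mean; the median was -0.06. The negative calls numbered 3 under quantile normalization or scaling of the arrays, which added Pfkl (limma adjusted p = 0.0466 and 0.0473) and Ldhc (0.044 and 0.0484), and 0 without probes near a strong probe or without mouse 3. The 1 was Pkm, pyruvate kinase of muscle and dividing cells, which makes the pathway's pyruvate. Pkm had -0.11, -0.40, -0.23, -0.27 and -0.13 in mice 1 to 5, a mean of -0.23 ± 0.12 (SD, n = 5; limma adjusted p = 0.0179). Its only probe lies 24 IDs from the strong C1qb probe, and its call was lost without mouse 2 or mouse 3 (limma adjusted p = 0.0547 and 0.0592; 0.013 to 0.0592 over its 13 alternatives). The muscle enolase gene Eno3 gave 0.20 ± 0.19 and the neuronal enolase gene Eno2 -0.04 ± 0.18 (SD, n = 5; limma adjusted p = 0.0765 and 0.699). Eno3 passed without mouse 1 (limma adjusted p = 0.0202), and Ldhc without mouse 2 (0.0319).

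Of 13 measured genes of glucose, lactate and pyruvate transport, 1 passed with a negative mean and 2 with a positive mean. Slc16a3 encodes MCT4, which exports lactate from glycolytic cells. It had -0.21, -0.61, -0.21, -0.26 and -0.34 in mice 1 to 5, on the same side as Ldha in every mouse (mean -0.33 ± 0.17; SD, n = 5; limma adjusted p = 0.0101). Bsg, basigin, the membrane partner that MCT1 and MCT4 need, was on the other side with 0.13, 0.30, 0.49, 0.56 and 0.56 (mean 0.41 ± 0.19; SD, n = 5; limma adjusted p = 0.00563). Slc2a4, the insulin-dependent glucose transporter GLUT4 of muscle and fat, had 0.19 ± 0.08 (SD, n = 4; limma adjusted p = 0.0422) and lost its call without mouse 2, 3, 4 or 5, with adjusted p from 0.0768 to 0.116. The general glucose transporter genes Slc2a1 (-0.14, n = 4) and Slc2a3 (0.10, n = 5) did not pass.

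Regulators were divided: of 15 measured, 3 passed with a negative mean and 3 with a positive mean, beside 15.2% and 12.3% of all genes. Pfkfb3 makes fructose-2,6-bisphosphate, the strongest known activator of phosphofructokinase. It had -0.33, -0.13, -0.26, -0.34 and -0.27 in mice 1 to 5, a tight group on the side of Pfkp (mean -0.26 ± 0.08; SD, n = 5; limma adjusted p = 0.00649). Mlxip, a glucose-sensing transcription factor, had 0.34 ± 0.16 and Arnt, the HIF partner subunit, 0.31 ± 0.19 (SD, n = 5; limma adjusted p = 0.00801 and 0.0183). Arnt lost its call without mouse 2, 3 or 5 (adjusted p 0.0557, 0.0628 and 0.0699). Hif1a, named after its values were seen, had -0.16 ± 0.08 (SD, n = 5; limma adjusted p = 0.0433) and lost its call without mouse 2, 3, 4 or 5, with adjusted p from 0.0886 to 0.131.

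Of 13 measured HIF target genes outside glycolysis, 5 passed with a positive mean, the side opposite to Pgk1 and Ldha, and 2 with a negative mean (median 0.07). Adm, the vasodilator adrenomedullin, had 0.52, 0.66, 0.60, 0.37 and 0.77 in mice 1 to 5 (mean 0.58 ± 0.15; SD, n = 5; limma adjusted p = 0.00103). Hilpda, a lipid droplet protein, had 0.41, 0.87, 0.12, 1.04 and 0.62 (mean 0.61 ± 0.37; SD, n = 5; limma adjusted p = 0.00925). Both were above 0 in all 5 mice, whereas Pgk1 and Ldha were below 0 in all 5. Vegfa, the vascular growth factor, was also above 0 in all 5 (0.56 ± 0.34; SD, n = 5; limma adjusted p = 0.0104). On the negative side lay Tfrc, the transferrin receptor, at -0.44 ± 0.20, and Hmox1, haem oxygenase 1, at -0.64 ± 0.44 (SD, n = 5; limma adjusted p = 0.00475 and 0.0152). Vegfa and Hmox1 were named after their values were seen. Hmox1 lost its call without mouse 3 or mouse 5 (adjusted p = 0.0563 and 0.06), and the Adm probe lies 12 IDs from the strong probe of Slpi (-1.88), on the other side of the ratio. Without mouse 2 or mouse 5 the list had 3 positive calls, and without mouse 3 or mouse 5 it had 1 negative call.

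Genes that lead off from glycolysis gave 3 negative calls and 0 positive calls among 9. Psat1, the aminotransferase of serine synthesis, had -0.31, -1.04, -0.99, -0.74 and -1.26 in mice 1 to 5, a larger mean than that of any member (-0.87 ± 0.36; SD, n = 5; limma adjusted p = 0.00251). Phgdh, which starts serine synthesis from 3-phosphoglycerate, had -0.36 ± 0.11, and Pgm3, of the hexosamine pathway, -0.50 ± 0.24 (SD, n = 5; limma adjusted p = 0.00309 and 0.0052). All 3 kept their calls under all 14 alternatives.

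The pentose phosphate pathway, which makes NADPH and ribose, gave 2 negative calls and 1 positive call among 7. Pgd, its NADPH-making 6-phosphogluconate dehydrogenase, had -0.26 ± 0.07 (SD, n = 5; limma adjusted p = 0.00612), and H6pd, the enzyme of the endoplasmic reticulum, 0.32 ± 0.18 (SD, n = 4; limma adjusted p = 0.0231). Pgls, the lactonase, had -0.18 ± 0.08 (SD, n = 5; limma adjusted p = 0.0291); without mouse 1, 2, 3 or 4 its adjusted p was from 0.0569 to 0.0963, and H6pd lost its call without mouse 2 or 5 (0.0793 and 0.0954).

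Of 9 glycogen genes, 2 passed, both below 0, namely Pgm1, phosphoglucomutase (-0.30 ± 0.10), and Pygl, liver glycogen phosphorylase (-0.31 ± 0.20; SD, n = 5; limma adjusted p = 0.00542 and 0.019); Pygl lost its call without mouse 2, 3, 4 or 5, with adjusted p from 0.0531 to 0.0577. Of 7 pyruvate dehydrogenase genes, 1 passed, Dld, the dihydrolipoamide dehydrogenase subunit (-0.19 ± 0.10; SD, n = 5; limma adjusted p = 0.0305), and its call was lost without mouse 3, 4 or 5 (0.0933, 0.0706 and 0.0697). Of 4 gluconeogenic genes 0 passed in limma's test.

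**Figure D4:**
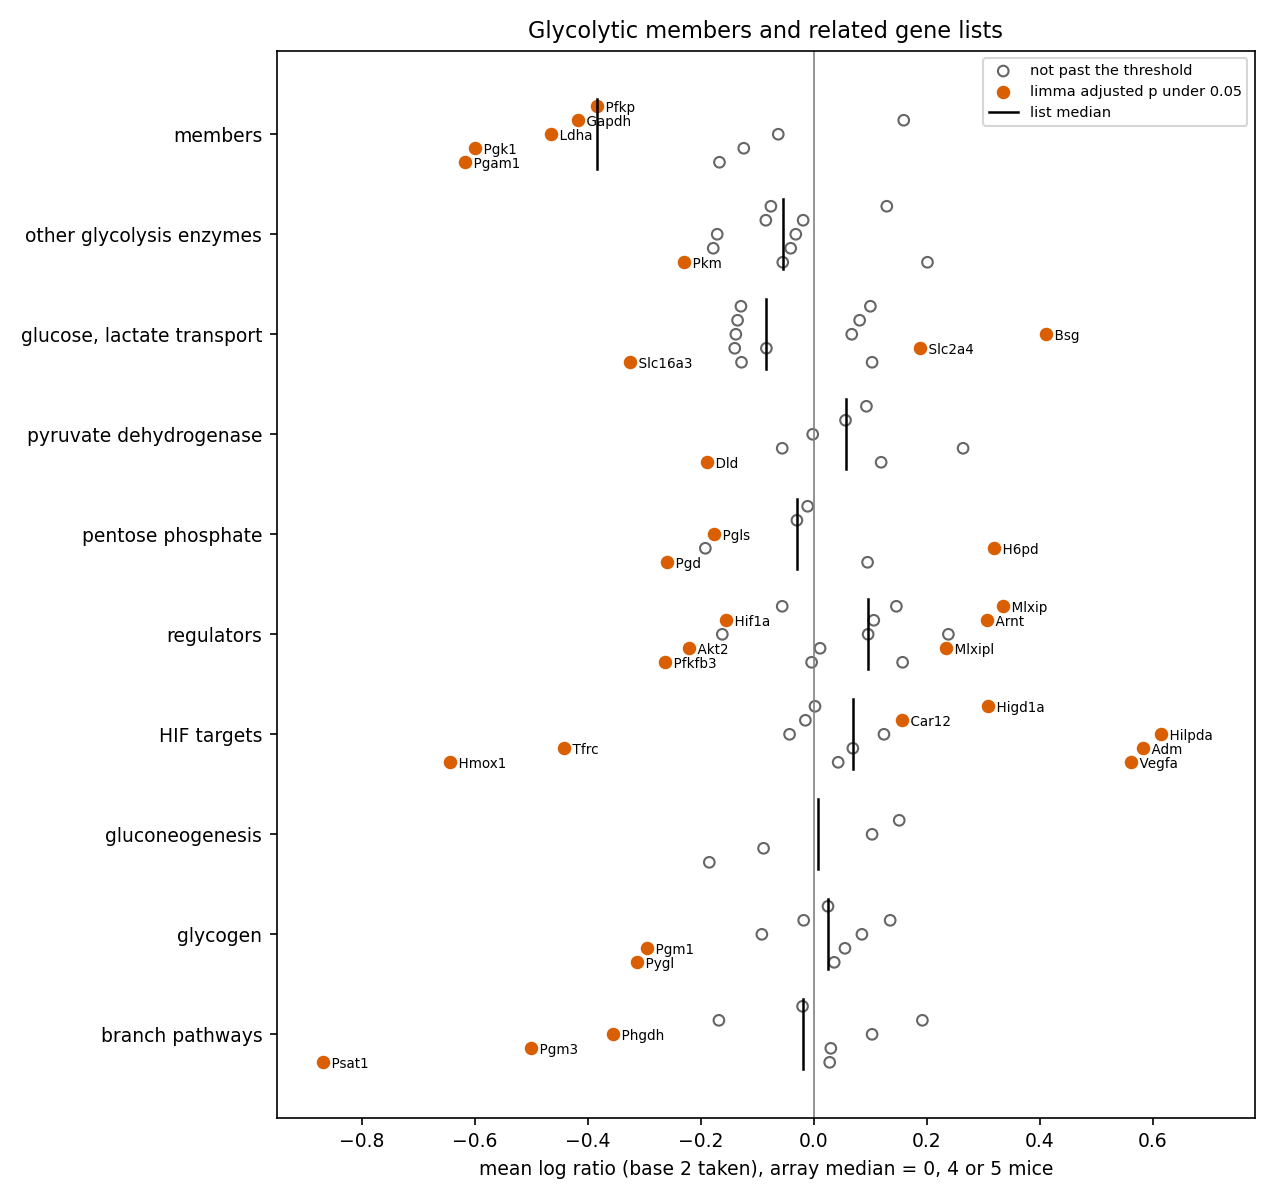
Mean centred log ratio (base 2 taken, horizontal axis) of each measured gene of the glycolytic members and of the 9 related lists over 4 or 5 ova mice against the control pool; filled points are past the threshold and all of them are named, open points are not, and vertical bars are list medians. The median of the members lies at -0.38, those of the related lists between -0.08 and 0.10, and Adm, Hilpda and Vegfa lie on the side opposite to Pgk1 and Ldha.

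Markers of other cells that the lungs could hold lay on both sides of the ratio. On the negative side, with Pgk1, Ldha, Pfkp, Gapdh and Pgam1, lay 7 of 10 macrophage markers (led by C1qb, -1.99, and C1qa, -1.64; list median from -1.08 to -0.14 among mice), 5 of 6 neutrophil markers (-0.98 to -0.34) and 8 of 10 proliferation markers (-0.96 to -0.22). Eosinophil markers gave 2 negative calls and 1 positive call among 4, lymphocyte markers 4 of 8 and red cell markers 1 of 2 on the negative side, and the goblet cell markers had list medians from -2.82 to -1.82. On the positive side lay 5 of 6 endothelial markers (0.23 to 0.85), 4 of 6 alveolar type 1 markers (0.25 to 0.78), 4 of 7 alveolar type 2 and club cell markers (with 1 on the negative side; 0.11 to 0.71), 4 of 11 markers of heart and skeletal muscle (-0.11 to 0.49) and 4 of 4 fat cell markers (0.17 to 0.43). Their part in the ratios of the glycolytic genes was not tested. For comparison, negative calls made up 15.2% of all 9715 genes and positive calls 12.3%. The marker lists were chosen with earlier results of these data known, so their counts are not independent evidence on cell content. A ratio gives no level, so whether a marker is present at all, those of lung included, cannot be read from these arrays.

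Across the 9 members, the mean ratio was -0.12, -0.38, -0.21, -0.40 and -0.38 in mice 1 to 5. In mouse 2 all 9 members were below 0, in mice 1 and 5 there were 7, and in mice 3 and 4 there were 6, while between 49.6% and 51.3% of all genes were below 0 on an array. Of 8015 other genes with 5 values, those whose mouse values lay nearest to the members' mean profile were Adamtsl5, Hsd17b1, Top3a, Tubb5 and Fcer2a, with root-mean-square differences from 0.04 to 0.05. Of the members themselves, Pfkp lay nearest to that profile (0.16) and Pgam1 and Aldoa farthest (0.56 and 0.51).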

How the data were processed

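RNA ratios between 5 ova mice and a control pool came from 1 table of the authors' processed values, a log ratio per probe and array, named here log2 because its signed, near-0-centred values are deposited without a stated base. The scanner and the steps of background correction and within-array normalization were not given in the sources used here, and no signal or background values were used. Of 17280 probes, 14722 had 1 gene symbol in GEO's platform annotation, 1 had several and 2557 had none; 14445 had an identifier in the RefSeq gene table, which changed 0 symbols. Arrays were centred on their own medians. Probes with values on at least 4 of 5 arrays (11778 to 13320 probes had a value on an array) were averaged per gene and array, and tested with limma 3.58.1 in R 4.3.3 (intercept, eBayes, two-sided, Benjamini-Hochberg over all genes), after a test on simulated data. The number of arrays limits the precision.

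The members and lists were chosen with earlier results of these data known. Named genes are all members, up to 3 called genes of smallest p per related list, up to 2 per marker list, and the 5 genes nearest to the members' mean profile; other genes were named after their values were seen. A strong probe is one of another gene with a mean beyond 1 in size at 6, 12, 18 or 24 IDs. Alternatives were the median over probes, no centring, quantile normalization, scaling of arrays, other filters, array weights, a robust prior, leaving out probes near strong ones, and leaving out each mouse (values then needed on at least 3 arrays).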

Additional observations from a re-analysis of the deposited data

Results flagged for a closer look

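Among 75 named genes, 1 had a mouse far from the others. Cyp2f2, a club cell cytochrome P450 used here as a marker of lung epithelium, had a ratio of 0.11 in mouse 1, against 1.05 to 1.33 in mice 2 to 5, a gap of 0.773 of the whole range. Chance alone flags about 1 in 20 groups of this size. None of the 9 glycolytic members had such a mouse, Pgam1 in mouse 4 and Ldha in mouse 4 included.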

How the results depend on the processing

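The ratios of Pgk1, Pfkp and Ldha stayed past the threshold below 0, and those of Aldoa, Tpi1, Hk1 and Hk2 stayed short of it, under every alternative run for them (14 each, and 13 for Hk2, whose only probe lies near a strong one). Gapdh lost its call without mouse 3, 4 or 5, and its mean over the fits without a mouse ranged from -0.50 to -0.35. Pgam1 lost its call with values needed on at least 3 arrays (-0.62, adjusted p = 0.0548), with a robust prior (-0.62, 0.052), with array weights (-0.53, 0.0594) and without mouse 2, 3, 4 or 5, and ranged from -0.75 to -0.39 over the fits without a mouse. Without a mouse the members past the threshold numbered 3 to 5, the genes 1601 to 2573 (2676 with all mice), the probes 1862 to 2940 (3095 with all mice) and the related genes 14 to 28 (26 with all mice). Fewer arrays enter these fits and more genes are tested. The isoenzyme genes Hkdc1, Eno2 and Ldhb, none past the threshold, changed sides without mouse 3, 2 or 4; over the fits without a mouse Hkdc1 ranged from -0.046 to 0.04, Eno2 from -0.101 to 0.012 and Ldhb from -0.10 to 0.043. No centring, quantile normalization and scaling moved the median over all genes by at most 0.002. No paired analysis was possible because the 5 arrays form 1 group. Spot brightness was not available, so faint spots could be told only where values were blank.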
